A study of Mus musculus with 3 samples.

Results

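Messenger RNA of 10 enzymes of the pentose phosphate pathway and of glutathione and quinone metabolism was followed in Hoxa9-transformed mouse cells given DB818. The 10 genes were those whose array name equals G6pdx, Pgd, Tkt, Taldo1, Gclc, Gclm, Gsr, Txnrd1, Mgst1 or Nqo1, and they were taken by name. They are 10 of the 27389 genes on the array, and all 10 are among the 10955 genes measured on every array, where measured means at least 1 probe well above background in both dyes and not saturated. Between them they have 16 probes, of which 15 were measured on all 3 arrays.

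MigA9 cells, a murine line transformed by Hoxa9, grew in RPMI with serum and medium conditioned with GM-CSF. DB818 is a small molecule that lies in the minor groove of DNA and was made to keep HOXA9 off its sites, and it was given at 2.5 µM for 6, 12 or 24 h. On each of the 3 arrays RNA of treated cells, in Cy5, was set against RNA of untreated MigA9 cells, in Cy3. There was 1 array per time, of 1 line, with no swap of the dyes, so that a dye effect of a probe and an effect of DB818 cannot be told apart, and the labels do not say whether the 3 arrays come from separate cultures. The spread that the tests use is therefore the spread over times of treatment, which may be technical. In RNA of whole cultures, a change in the share of a cell type and a change in RNA per cell cannot be told apart.

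Between 11446 and 11565 genes were measured per array, and the median ratio lay between 0.02 and 0.03 on the log2 scale. Of 10 markers of myeloid progenitors, 9 were measured on all arrays: Kit and Itgam rose, Spi1, Mpo, Elane, Prtn3 and Cebpa fell, and Ptprc and Csf2rb did not pass the test, with mean log2 ratios from -0.67 (Mpo) to 0.38 (Itgam). Their part in the results below was not tested. Of the markers of B cells, erythroid cells and stroma (5 each), none was measured on any array. Of 6 T cell markers, Lat was measured on all arrays (mean log2 ratio 0.04, not passing the test) and Cd4 on the 6 h array alone. Of 5 epithelial markers, Krt8 alone was measured, on the 12 h array.

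The pentose phosphate pathway draws glucose 6-phosphate off glycolysis. Its oxidative branch, run by G6pdx and Pgd, yields NADPH and ribulose 5-phosphate, and its non-oxidative branch, run by Tkt and Taldo1, exchanges carbons between sugar phosphates and glycolytic intermediates. NADPH is what glutathione reductase (Gsr) and thioredoxin reductase (Txnrd1) use to keep glutathione and thioredoxin reduced, and glutamate-cysteine ligase (Gclc with its modifier subunit Gclm) carries out the limiting step of glutathione synthesis. Many genes of this group are known targets of the transcription factor Nrf2 (Nfe2l2), which binds antioxidant response elements with small Maf proteins, is held in check by Keap1, and competes there with the repressor Bach1. Myeloid cells also spend NADPH in the oxidative burst.

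Promoters are shown first for the 4 genes whose 250 bases before the transcription start hold the core of the antioxidant response element, since this is the sequence that the group is best known to share. RefSeq promoters (GRCm38.p6) were given for 8 of the 10 genes, in 12 windows with alternative starts. Gclc and Gsr had no entry. The core was searched on both strands as TGACNNNGC, and each match below lies on the strand opposite to the gene, so the capitals mark its reverse complement.

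G6pdx (chrX:74428881-74429130, minus strand): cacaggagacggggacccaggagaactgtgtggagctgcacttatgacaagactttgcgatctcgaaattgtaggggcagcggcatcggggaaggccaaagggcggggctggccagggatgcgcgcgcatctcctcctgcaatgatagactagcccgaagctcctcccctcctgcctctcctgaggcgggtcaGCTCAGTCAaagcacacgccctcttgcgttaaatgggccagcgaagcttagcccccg
Gclm (chr3:122245307-122245556, plus strand): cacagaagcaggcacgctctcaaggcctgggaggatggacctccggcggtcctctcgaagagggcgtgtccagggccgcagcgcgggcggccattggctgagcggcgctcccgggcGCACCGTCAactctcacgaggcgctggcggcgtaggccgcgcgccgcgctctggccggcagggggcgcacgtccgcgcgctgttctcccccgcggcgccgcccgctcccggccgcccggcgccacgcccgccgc
Txnrd1 (chr10:82858956-82859205, plus strand): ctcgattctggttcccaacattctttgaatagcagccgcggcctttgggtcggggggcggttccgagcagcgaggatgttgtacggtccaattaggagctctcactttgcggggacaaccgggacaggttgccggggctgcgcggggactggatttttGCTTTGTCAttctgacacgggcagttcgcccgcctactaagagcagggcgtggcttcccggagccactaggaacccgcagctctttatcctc
Mgst1 (chr6:138140277-138140526, plus strand): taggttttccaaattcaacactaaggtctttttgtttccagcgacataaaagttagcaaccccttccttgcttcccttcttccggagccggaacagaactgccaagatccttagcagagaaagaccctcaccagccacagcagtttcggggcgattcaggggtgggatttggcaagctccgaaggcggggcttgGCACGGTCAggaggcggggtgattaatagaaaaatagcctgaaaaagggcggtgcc

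The match began 57 bases before the start in G6pdx, 134 in Gclm, 92 in Txnrd1 and 56 in Mgst1, counted at the base farthest from the start. In all, 4 of the 12 windows of the group held the core, against 10.2% of the 32851 promoters of the same length. A core of the Hoxa9 type, TGATTTA, was in none of the 12 windows and in 2.61% of all promoters. These are matches of letters in short windows and say nothing about binding. The 4 genes with a core did not move alike: G6pdx and Mgst1 fell, and Gclm and Txnrd1 did not pass the test.

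All ratios below are log2 of treated over untreated signal after loess normalisation, so that a value below 0 means less RNA in treated cells. The mean over the 3 arrays was tested with limma against 0, with Benjamini-Hochberg adjustment over 10955 genes and a threshold of 0.05, and errors are SE (n = 3 arrays). By this test 4 of the 10 enzymes fell (G6pdx, Pgd, Taldo1 and Mgst1, of which Pgd and Taldo1 turn above 0 under median centring), 1 rose (Gclc) and 5 did not pass (Tkt, Gclm, Gsr, Txnrd1 and Nqo1). Over all genes tested, 7.86% fell and 20.1% rose. The median of the 10 mean ratios was -0.04, beside 0.03 over all genes (SD 0.12). The call of G6pdx also rests on the loess step, as given below.

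**Figure D1:**
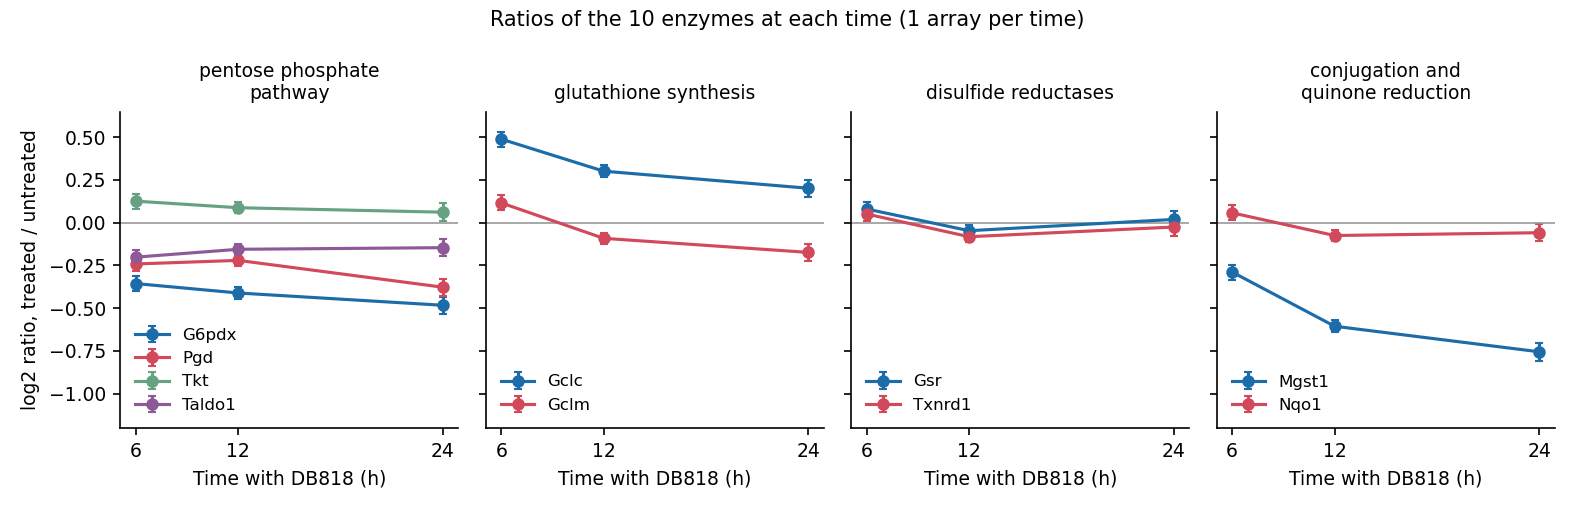
The log2 ratio of DB818-treated over untreated cells (vertical axis) is drawn against hours of treatment (horizontal axis) for each of the 10 enzymes, 1 point per array, grouped by role. Mgst1 goes from -0.29 to -0.76 and Gclc from 0.49 to 0.20, while Gsr, Txnrd1 and Nqo1 stay between -0.08 and 0.08.

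In the oxidative branch, both NADPH-forming dehydrogenases fell on the loess scale, but Pgd turned to 0.16 and G6pdx to -0.00 under median centring. G6pdx, the enzyme that commits glucose 6-phosphate to the pathway, had ratios of -0.36 at 6 h, -0.41 at 12 h and -0.48 at 24 h. It was lower in treated cells on all 3 arrays, by 1.28-, 1.33- and 1.40-fold. Its mean was -0.42 ± 0.03 (limma adjusted p = 0.0034), and where arrays were only centred on their median, it lost its call (limma adjusted p = 0.93).

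Pgd, the 6-phosphogluconate dehydrogenase that makes the second NADPH of the branch, had ratios of -0.24, -0.22 and -0.38 at 6, 12 and 24 h. It too was lower in treated cells on every array, and its mean of -0.28 ± 0.04 passed the test (limma adjusted p = 0.0061). Its probes were both lower on every array but differed in size. The probe of the larger ratio read -0.34, -0.29 and -0.51, and the other -0.14, -0.15 and -0.25.

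In the non-oxidative branch, Taldo1, the transaldolase, fell by a small amount. Its ratios were -0.20, -0.16 and -0.15, all on 1 side of 0, with a mean of -0.17 ± 0.03 (limma adjusted p = 0.010), and median centring turned the mean to 0.42. The call was also lost with Agilent's processed signals (-0.11, limma adjusted p = 0.12) and without the 12 h array (-0.17, limma adjusted p = 0.085).

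Tkt, the transketolase, did not pass: its ratios were 0.13, 0.09 and 0.06, and its mean was 0.09 ± 0.03 (limma adjusted p = 0.064). It has 3 probes that do not read alike. The bright one gave 0.04, 0.02 and -0.03, and the dim one, whose Cy3 signals of 78.0, 91.4 and 90.2 stand near the array median of 78.2 to 79.3, gave 0.21, 0.15 and 0.15. The third was not well above background on any array. The gene's mean lies between them, and it passed after plain background subtraction (0.18, limma adjusted p = 0.022).

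The subunits of glutamate-cysteine ligase differed in their calls, and the difference between them was not tested. Gclc, the catalytic subunit, had ratios of 0.49 at 6 h, 0.30 at 12 h and 0.20 at 24 h. It was higher in treated cells on all 3 arrays, by 1.40-, 1.23- and 1.15-fold, most at the first time and least at the last. Its mean of 0.33 ± 0.05 passed the test (limma adjusted p = 0.0083), and it was 0.51 after median centring and 0.34 with Agilent's processed signals, where it missed the threshold (limma adjusted p = 0.056).

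Gclm, the modifier subunit that makes the ligase more active, had ratios of 0.12, -0.09 and -0.17. It was above 0 at 6 h and below 0 at 12 and 24 h, and its mean of -0.05 ± 0.05 did not pass (limma adjusted p = 0.52). Without the 6 h array the mean was -0.13 and passed (limma adjusted p = 0.034), so the call turned on that array. Agilent's processed signals gave 0.12, -0.19 and -0.39, the same order with a wider range.

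The NADPH-using reductases stayed near 0. Gsr, which returns oxidised glutathione to its reduced form, had ratios of 0.08, -0.05 and 0.02 and a mean of 0.02 ± 0.03 (limma adjusted p = 0.73). Txnrd1, the cytosolic thioredoxin reductase, had ratios of 0.05, -0.08 and -0.03 and a mean of -0.02 ± 0.04 (limma adjusted p = 0.70). Neither had 1 sign on all arrays, and after median centring both were higher, at 0.36 and 0.33.

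Mgst1, a membrane-bound glutathione transferase and peroxidase of the endoplasmic reticulum and mitochondria, had the lowest mean of the 10. Its ratios were -0.29 at 6 h, -0.61 at 12 h and -0.76 at 24 h. It was lower in treated cells on every array, by 1.22-, 1.52- and 1.69-fold, further at each later time. Its mean of -0.55 ± 0.08 passed the test (limma adjusted p = 0.0063) and, of the 5 enzymes that passed, it alone kept its direction and call under every other processing run and with each array left out, with means from -0.68 to -0.30 and limma adjusted p up to 0.039.

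The probes of Mgst1 read alike. One gave -0.35, -0.61 and -0.73 and the other -0.23, -0.60 and -0.78, both further from 0 at each later time.

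Nqo1, a quinone reductase and a standard target of Nrf2, was at the floor of what the arrays measured. Its only probe had Cy3 signals of 80.0, 84.5 and 82.6 and was dimmer than all but 0.14% of the measured probes. Its ratios of 0.06, -0.08 and -0.06 gave a mean of -0.03 ± 0.04 (limma adjusted p = 0.62). With Agilent's processed signals the same spots gave 0.39, -0.49 and -0.57, so the size of its ratio depends on the processing.

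**Figure D2:**
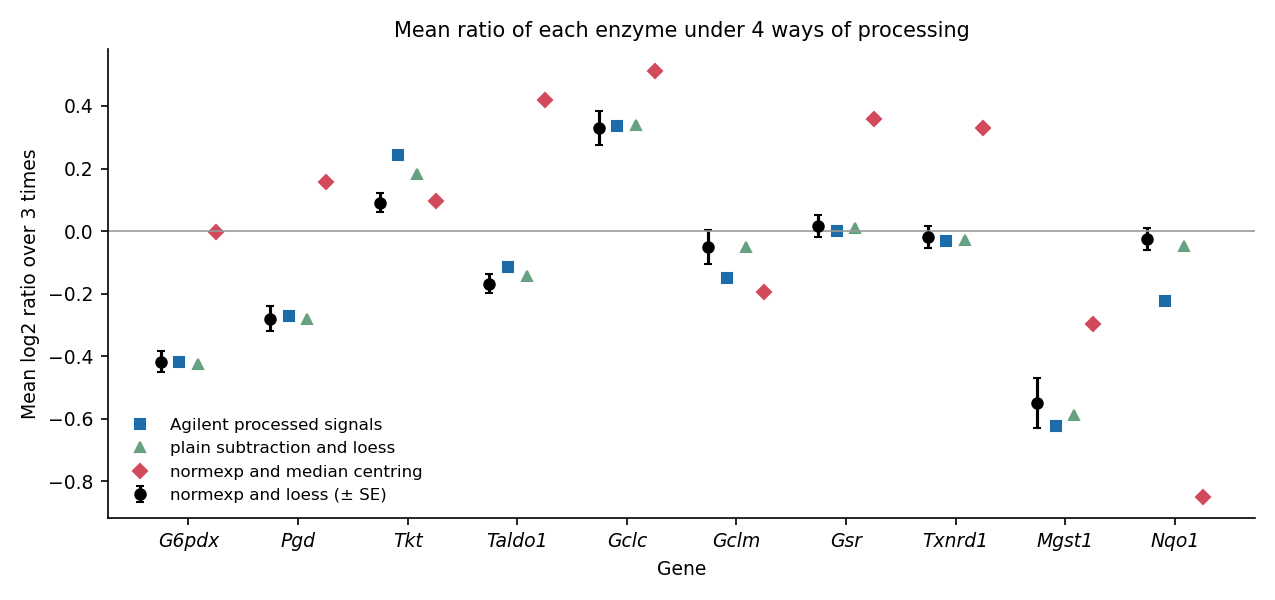
The mean log2 ratio over the 3 arrays (vertical axis) is drawn for each enzyme (horizontal axis), 1 mark per setting. The settings are the main processing (with SE), Agilent's processed signals, plain background subtraction and median centring. The marks of Mgst1 lie from -0.62 to -0.30 and those of Taldo1 from -0.17 to 0.42, the highest of each being median centring.

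Median centring keeps a dependence of the ratio on spot brightness that loess removes. With centring alone, the brightest 10% of the measured probes had median ratios of 0.37 to 0.44 on the 3 arrays and the dimmest 10% of -0.72 to -0.67. After loess both stood within 0.02 of 0. The pentose phosphate enzymes are among the brightest probes: the probe of Taldo1 lay above 99.5% of the measured probes, the bright probe of Tkt above 99.6%, the brighter probe of Pgd above 97.3% and that of G6pdx above 95.1%. The probe of Gclc lay above 71.8%, and those of Mgst1 above 79.1% and 83.1%. Under median centring 6 of the 10 enzymes rose (Pgd, Tkt, Taldo1, Gclc, Gsr and Txnrd1) and 3 fell (Gclm, Mgst1 and Nqo1). Of all genes, 37.9% rose and 40.8% fell in that setting. Among the 5 enzymes called after loess, Gclc and Mgst1 kept direction and call on both scales, and G6pdx stayed below 0 without passing.

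With 1 array per time, no test was made at single times. Instead a log2 ratio of 0.32 either way was used as a marker of size. At 6 h Gclc was higher and G6pdx lower by at least that much, where 1.79% of 11446 genes were that much higher and 0.725% that much lower. At 12 h none of the 10 was that much higher and 2 were lower (G6pdx and Mgst1), beside 1.39% and 0.723% of all genes. At 24 h none was higher and 3 were lower (G6pdx, Pgd and Mgst1), beside 2.72% and 1.46%. After loess the count above 0 was 6 of the 10 at 6 h, 2 at 12 h and 3 at 24 h. On that scale 59.9%, 59.4% and 59.8% of all genes lay above 0. Under median centring the count was 8, 6 and 6, beside 46.8%, 47.0% and 46.8% of all genes. The median ratio of the 10 after loess was 0.05, -0.09 and -0.10.

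From 6 to 24 h the ratio of 9 of the 10 went down in the main processing, and how many of all genes went down was not counted. Of these 9, Tkt went up under median centring (0.04) and with no filter on dim probes (0.0042). The change was -0.47 for Mgst1, -0.29 for Gclm, -0.29 for Gclc, -0.14 for Pgd, -0.13 for G6pdx and -0.12 for Nqo1. It was between -0.08 and -0.06 for Txnrd1, Tkt and Gsr, and 0.06 for Taldo1, the exception. Over all genes the change had a median of 0.00 and an SD of 0.14. In the main processing Mgst1 alone of the 10 changed by 0.32 or more, downward. Of all genes, 1.04% changed so far downward and 1.60% upward. Gclm also did so with plain background subtraction (-0.37), median centring (-0.37) and Agilent's processed signals (-0.51). Gclc did so under median centring (-0.33) and with Agilent's signals (-0.34), and Nqo1 with Agilent's signals (-0.96). How many of all genes did so in those settings was not counted. The change rests on 1 array at each end and was not tested.

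Both dyes can be read apart to see which side moved. Levels here are log2 signals of each channel after loess and quantile normalisation across the arrays, and they compare 1 gene with itself only. In untreated cells Mgst1 stood at 9.90, 10.05 and 10.22 on the 6, 12 and 24 h arrays, and in treated cells at 9.61, 9.45 and 9.46. The channels did not overlap, though how many of all genes show this was not counted. The widening of the gap from 6 to 24 h is an untreated level higher by 0.32 together with a treated level lower by 0.15. The probes gave 0.21 and 0.42 for the untreated channel, and without quantile normalisation their mean was 0.37.

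Gclc had untreated levels of 8.96, 8.96 and 8.77 and treated levels of 9.45, 9.26 and 8.97. Its gap narrowed as the treated level dropped by 0.48 and the untreated by 0.19, and the treated level at 24 h came close to the untreated level at 6 h. Gclm behaved likewise in size, lower by 0.41 in treated and by 0.12 in untreated cells. G6pdx had untreated levels of 12.04, 12.08 and 11.98 and treated levels of 11.68, 11.67 and 11.49, with no overlap on the loess scale. As for Mgst1, the share of all genes without overlap was not counted.

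Levels of Gsr and Tkt moved together in both channels from 6 to 24 h, with Gsr higher by 0.27 in untreated and 0.21 in treated cells, and Tkt by 0.23 and 0.17. In Gsr this came mostly from 1 of its 3 probes, higher by 0.67 in untreated cells where the others differed by 0.14 and -0.01. In Tkt the dim probe was higher by 0.32 in untreated and 0.26 in treated cells, and the bright one by 0.14 and 0.07. The ratios of Gsr and Tkt show little of these shifts, because they are common to both dyes. Across all genes the same change between arrays had an SD of 0.24 in untreated and 0.26 in treated channels, so the shifts of Gsr and Tkt in either channel and those of treated Mgst1 and of G6pdx are about as large as, or smaller than, the spread over genes. The shifts of untreated Mgst1 (in 1 of its 2 probes) and of treated Gclc and Gclm are larger than it, and with 1 array at each time none was tested.

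**Figure D3:**
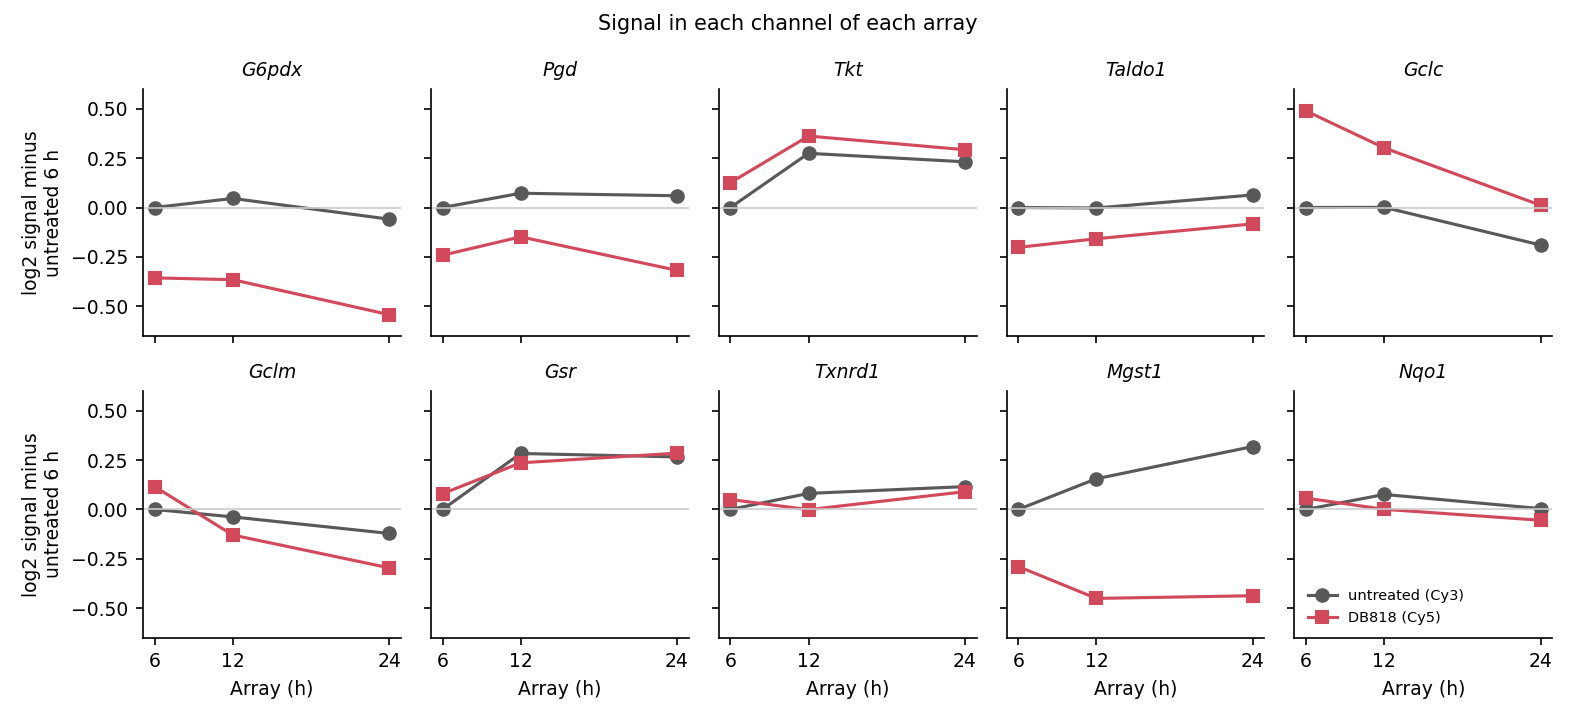
For each enzyme the log2 signal of the untreated (Cy3, circles) and treated (Cy5, squares) channel is drawn for the 6, 12 and 24 h arrays, relative to the untreated channel at 6 h. From 6 to 24 h the gap widens in Mgst1, with the untreated line higher by 0.32 and the treated line lower by 0.15. It narrows in Gclc, with the treated line lower by 0.48 and the untreated line by 0.19.

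Several measures of error within an array are at hand. Spots of 22 probes printed many times on each array had an SD of 0.04, 0.03 and 0.05 in log2 ratio at 6, 12 and 24 h. The scanner software's own error model is wider, at 0.20 to 0.22 on the log2 scale for each of the enzymes' probes with a Cy3 signal of at least 200, and 0.55 to 0.66 for Nqo1. Against the wider error, the ratios of Mgst1 and G6pdx at every time, and of Gclc at 6 and 12 h, exceeded 1 such error. No probe of Taldo1, Gsr or Txnrd1 exceeded it at any time, nor did the bright probe of Tkt. For the dim probe of Tkt the scanner's own ratio was 0.51 with an error of 0.44 at 6 h and 0.54 with an error of 0.31 at 24 h, beyond its error at both times, while its loess ratio lay within it. The number of arrays limits the precision.

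Other genes of these pathways were taken from 6 lists of 145 genes, of which 107 were measured on all arrays. Of the 107, 20 rose, 19 fell and 68 did not pass, with a median mean ratio of -0.01. That is 18.7% that rose and 17.8% that fell, beside 20.1% and 7.86% of all genes. The counts and medians of single lists below are for the main processing only, and the counts have these same shares of all genes as background. How the list stands to all genes depends on the setting: 48.6% rose and 28.0% fell under median centring, beside 37.9% and 40.8% of all genes, and 4.67% rose and 3.74% fell with Agilent's processed signals, beside 5.39% and 5.84%. Without the 12 h array the counts were 4 and 0 by limma (21 and 19 at an unadjusted p under 0.05), beside 403 and 143 of all genes, and without the 24 h array 13 and 6.

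Of the 30 genes named below, 26 missed the threshold without the 12 h array, 12 without the 24 h array and 22 with Agilent's processed signals, while no direction turned in any of these. Their means without the 12 h array were 0.73 to 1.14 times those over all arrays, so the calls were lost with the sizes largely kept. Under median centring 13 turned in direction and 2 more, Blvra and Cat, missed the threshold.

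Among 12 other pentose phosphate enzymes, 3 rose and none fell by limma, and the median was 0.01. Rpia, the isomerase that makes ribose 5-phosphate, rose (0.31 ± 0.03, limma adjusted p = 0.0034). The synthetases that turn ribose 5-phosphate into the nucleotide precursor PRPP rose too, Prps1 by 0.25 and Prps2 by 0.11. Prps2 turned to -0.28 under median centring, and its brightest probe gave 0.06 (limma adjusted p = 0.18). Rpia and the synthetases run steps on the way to nucleotides. The dehydrogenases G6pdx and Pgd fell (with median centring at -0.00 and 0.16), and the difference between the groups was not tested.

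In glutathione synthesis, recycling and export, 8 of 20 other genes rose and 4 fell (median 0.05). Abcc1, an exporter of glutathione conjugates, rose by 0.27, but its brightest probe gave 0.05 (limma adjusted p = 0.29). Glrx, a glutaredoxin, rose by 0.26 and Ggct, which splits gamma-glutamyl amino acids, by 0.23. Gss, the synthetase that follows glutamate-cysteine ligase, fell (-0.14), as did Esd (-0.16) and the peroxidase Gpx1 (-0.14), the last pair turning to 0.19 and 0.41 under median centring. Slc7a11, the cystine importer, was not measured on all arrays.

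Among 16 other glutathione transferases 2 rose and 3 fell (median -0.00). Gstm2 rose (0.37 ± 0.06, limma adjusted p = 0.0092), with ratios of 0.18, 0.38 and 0.54, a course opposite to that of Mgst1, and Gstt3 rose by 0.18. Gsto1 (-0.15), Gstm1 (-0.15) and Gstm3 (-0.12) fell, all of them turning to 0.24 to 0.33 under median centring. The brightest probe of Gstm1 gave -0.05 (limma adjusted p = 0.32). The Gstm genes are close copies whose probes may share signal, so their separate values are uncertain.

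Of 24 thioredoxin, peroxiredoxin and other antioxidant genes, 19 did not pass, 2 rose and 3 fell (median -0.00). The selenoprotein Selenow and the methionine sulfoxide reductase Msrb2 each rose by 0.17. The catalase Cat fell (-0.14), but missed the threshold under median centring (-0.03, limma adjusted p = 0.51). Prdx5 (-0.15) and Msrb1 (-0.15) fell too, turning to 0.15 and 0.35 under median centring.

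Among Nrf2 regulators and other Nrf2 targets, 3 of 22 rose and 5 fell (median -0.01). All 3 that rose are regulators. Bach1, the repressor that occupies antioxidant response elements, had ratios of 0.76, 0.60 and 0.47, with a mean of 0.61 ± 0.05 (limma adjusted p = 0.0034), and was high on every array, most at 6 h. Keap1, which targets Nrf2 for degradation, rose by 0.20, and Mafk, a small Maf partner, by 0.19, turning to -0.07 under median centring.

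Nrf2 itself (Nfe2l2) had a mean of 0.05 (limma adjusted p = 0.23) and Hmox1, a classic target of both Nrf2 and Bach1, of -0.06 (limma adjusted p = 0.30), and neither passed. The biliverdin reductase Blvra fell (-0.23), but missed the threshold under median centring (-0.07, limma adjusted p = 0.30) and with no filter on dim probes (-0.09, limma adjusted p = 0.16). Ugdh (-0.26), which makes UDP-glucuronate, and Akr1c13 (-0.15) fell, turning to 0.08 and 0.11 under median centring.

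Other sources of NADPH had the lowest list median, -0.08, with 2 of 13 higher and 4 lower by the test. Mthfd2, a mitochondrial folate dehydrogenase, rose by 0.22 and the NAD kinase Nadk by 0.13. Idh1, the cytosolic NADPH-forming isocitrate dehydrogenase, fell (-0.17), and so did Glud1 (-0.21) and Shmt2 (-0.14), the last pair turning to 0.22 and 0.20 under median centring. Me1, the cytosolic malic enzyme, was not measured on all arrays.

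**Figure D4:**
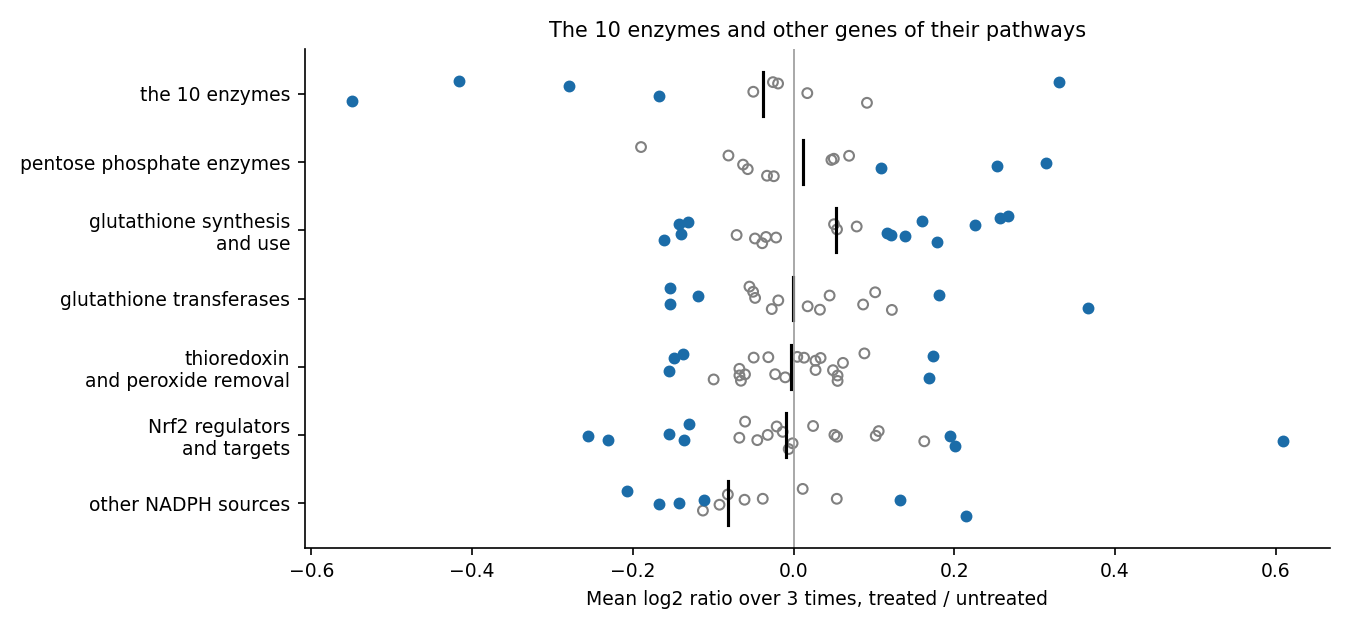
The mean log2 ratio over the 3 arrays (horizontal axis) is drawn for the 10 enzymes and the 107 measured genes of the other pathway lists. Rows are lists, filled points passed the test, open points did not, and bars mark medians. Among the list genes Bach1 lies farthest to the right at 0.61 and Ugdh farthest to the left at -0.26, though at 0.08 under median centring.

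The genes whose 3 ratios lay nearest to those of Gclc and Mgst1, by Euclidean distance over the 3 arrays, were sought as a description. For Gclc they were Zranb2 (distance 0.020), Hoxd9 (0.040), Kif5b (0.054) and Tob2 (0.059). For Mgst1 they were Gpr65 (0.042), Glyat (0.11), Clec7a (0.13) and Pmp22 (0.17). With 3 arrays many genes lie close to any course.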

How the data were processed

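Agilent 2-colour arrays of 41174 probes were scanned and read with Agilent Feature Extraction 9.1.3.1, per the submitters' processing notes. The deposited spot values used here are mean and background intensity in each dye, background-subtracted and dye-normalised signals, and the log10 ratio of Cy5 over Cy3 with its error, per the file headers. The deposited value table equals that log10 ratio on every array (difference 0). A genome build was not given in the sources used here.

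From the intensities, background was corrected by normexp (offset 50) and ratios were normalised by loess within arrays in limma 3.58.1 (R 4.3.3). Control and outlier spots were left out (36 to 52 outlier spots per array). Probes had to be well above background in both dyes and unsaturated, and a gene is the mean of its probes. Names came from RefSeq by accession (22864 probes), symbol (6732) or synonym (3498), and otherwise (8080) from the files. The mean over times was tested with lmFit and eBayes (2 residual and 4.82 prior degrees of freedom). In simulated data of 10955 genes this recovered 66 of 67 genes changed by 0.32 on the log2 scale. It also recovered 67 of 67 changed 1.5-fold and 66 of 66 changed 2-fold, with 14 false calls. The simulated errors were independent, with spreads drawn from limma's own fit, and held no dye effect and no course over time. These counts therefore describe the test under those conditions and do not give its error rates in these data. Single times and changes between them had no test.

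The members, lists and tests were chosen with earlier results of these data known. The rule for named genes took, from each list, up to 3 genes that rose and 3 that fell by largest mean ratio. Alternatives were Agilent's processed signals, plain background subtraction, median centring, no filter on dim probes, the brightest probe per gene, a false discovery rate of 0.01, channels without quantile normalisation, and each array left out. Python 3.11.15 with pandas 2.3.3 and matplotlib 3.10.9 made the tables and plots.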

Additional observations from a re-analysis of the deposited data

Results flagged for a closer look

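Gclm had a ratio above 0 at 6 h and below 0 at 24 h after loess, with a difference of -0.29 (24 h minus 6 h). The scanner's own ratio of the Gclm probe was 0.12 at 6 h, inside its error of 0.21. At 24 h it was -0.39, outside its error of 0.22, while the loess ratio of -0.17 lay inside it. After median centring Gclm was 0.0083 at 6 h and -0.36 at 24 h. Nqo1 was likewise above 0 at 6 h and below 0 at 24 h after loess, with a difference of -0.12. The scanner's own ratios of its probe, 0.39 and -0.57 at those times, lie inside their errors of 0.65 and 0.66. After median centring Nqo1 was below 0 at both times (-0.76 and -0.94). Neither difference was tested, since each time has 1 array. Groups of 1 array allow no search for samples far from the others.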

How the results depend on the processing

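Median centring turned the mean ratio of Pgd to 0.16, of Taldo1 to 0.42 and of Txnrd1 to 0.33, the 6 h ratio of G6pdx to 0.084 and the 24 h ratio of Pgd to 0.081, and it gave 6 enzymes that rose, 4154 of all genes that rose and 4475 that fell, and 52 and 30 of the other pathway genes. With it 4 enzymes were past 0.32 upward at 6 h, 2 at 12 h and 4 at 24 h, and the ratios of 3 went down by that much from 6 to 24 h. Agilent's processed signals left no enzyme that rose by limma (2 had a mean above 0 at an unadjusted p under 0.05), 590 of all genes that rose, and 5 and 4 other pathway genes that rose and fell. With them 2 enzymes were past 0.32 upward and 2 downward at 6 h, 5 downward at 24 h, and the ratios of 4 went down by that much from 6 to 24 h. Plain background subtraction gave 2 enzymes that rose and 2 whose ratio went down by that much. The brightest probe gave 2 enzymes past 0.32 downward at 6 h. The share of all genes past 0.32 was counted in the main processing alone, so these counts of enzymes have no background. At a false discovery rate of 0.01, 675 of all genes rose and 228 fell, with 8 and 1 of the other pathway genes.

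With each array left out in turn, the means of Gclm ranged from -0.13 to 0.012, of Gsr from -0.014 to 0.049 and of Txnrd1 from -0.054 to 0.012. Counts over all genes ranged from 403 to 2296 that rose and from 143 to 957 that fell, and over the other pathway genes from 4 to 23 and from 0 to 21, the lowest in each case without the 12 h array (by limma, 19 of the other pathway genes were then lower at an unadjusted p under 0.05). No paired analysis between times was possible because each time has 1 array. Treated and untreated RNA are already paired within each array's ratio, and the tests rest on these ratios. Dim probes, Nqo1 above all, carry little signal over background: the mean of Nqo1 ranged from -0.85 to -0.0008 over the settings.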
